A study of Mizuhopecten yessoensis with 6 samples.

Results

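The 4 genes described here are CYTB (KEG48_p06), COX1 (KEG48_p10), COX3 (KEG48_p05) and ATP6 (KEG48_p04), all encoded by the mitochondrial genome of the Yesso scallop, Mizuhopecten yessoensis. They were taken by their locus tags from a table of 20815 genes, in which 7 further mitochondrial genes, the ND subunits of complex I, are also listed. RNA came from gill of 3 scallops kept for 24 h under hypoxia, with 1 mg/L of dissolved oxygen, and of 3 scallops kept as long at normal oxygen, with 9 mg/L. Each library is 1 scallop, all 6 are gill, and no other treatment or genotype is given in the labels. How many tanks were used is not stated in these sources, so a tank cannot be told apart from its oxygen level, and p-values measure the spread between scallops.

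The respiratory chain passes electrons from NADH and other donors to oxygen and pumps protons across the inner mitochondrial membrane, and ATP synthase uses the returning protons to make ATP. CYTB is cytochrome b, the haem-bearing core of complex III, where ubiquinol is oxidised. COX1 carries the haem-copper centre of complex IV (cytochrome c oxidase) at which oxygen is reduced, and COX3 is a core subunit of the same complex without a redox centre. ATP6 is the subunit of ATP synthase that forms the path of protons through the membrane. These proteins are made inside the mitochondrion and join subunits encoded in the nucleus. COX2 and ATP8, which belong to the same complexes in many animals, and the nuclear subunits were not analysed here.

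Levels are given as FPKM, fragments scaled to the length of the gene and the total of the library, a unit that allows genes of unequal length to be compared. Whole reads were recovered from the FPKM values. Library totals did not overlap between the groups, at 26695289 to 27900042 reads under hypoxia and 24062577 to 25930694 reads at normal oxygen. Depth can therefore not be told apart from oxygen level. A single value for 1 of the 4 genes rested on 49489 to 483297 reads, so counting error was small beside the differences between scallops. The identifiers of nuclear genes could not be paired with product names, so the tissue label was not checked against gill markers. In bulk RNA, fewer cells of a type rich in mitochondria and less mitochondrial RNA per cell cannot be told apart.

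Transcripts of all 4 genes had lower means in hypoxic gill than in normal gill, by 22.4 to 33.9% of mean FPKM, and 0 of the 4 passed the test over all genes. A log2 change below 0 was found in 46.2% of all genes tested. In each of the 4 the groups were fully apart, the highest hypoxia library lying below the lowest normal library, which was also the case for 10.3% of all genes tested. By limma with Benjamini-Hochberg adjustment over 13744 genes, 0.429% of tested genes were called lower at an adjusted p of 0.05. At an unadjusted p under 0.05, 3 of the 4 genes were lower, against 7.03% of all tested genes, and limma's voom on recovered reads likewise gave 0 and 3. For voom 923 of all 13744 tested genes were lower at that p. The count of 3 depends on the setting: it was 1 without a filter on low values, against 1195 lower of 20815 tested genes. It was 2 under a replicate block, against 861 of 13744, and without normal replicate 3, against 805 of 13501. Without replicate 3 of both groups it was 2, against 658 of 13023. Without hypoxia replicate 1, 2 or 3 it was also 2, against 647 of 13417, 742 of 13401 and 767 of 13385. Over the 4 genes the median log2 change (hypoxia minus normal, fitted to log2(FPKM + 1)) was -0.47, and that of all tested genes was 0.033. Total FPKM was lower in hypoxia libraries (494641 to 511912) than in normal libraries (516494 to 559355). With equal sums, log2 changes were -0.54 in CYTB, -0.27 in COX1, -0.35 in COX3 and -0.42 in ATP6. The median of all tested genes was then 0.098. Scaling by the median of ratios moved the 4 the other way, to -0.68, -0.40, -0.49 and -0.56 in that order. The 4 genes share libraries and a genome and are not independent of one another. All 4 passed the filter on low values in every library, so none entered through 1 group alone.

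CYTB, the complex III gene, had 5142, 5269 and 3220.1 FPKM in the hypoxia libraries (replicates 1, 2 and 3), against 6885, 5952 and 7796 FPKM in the normal libraries. Hypoxia replicate 3 stood well below the other 2, and all 3 lay below every normal library. The means were 4544 ± 1148 FPKM under hypoxia and 6877 ± 922 FPKM at normal oxygen (SD, n = 3 each). The log2 change was -0.62 with a 95% interval from -1.15 to -0.094, and the limma adjusted p was 0.21. This was the lowest fitted change of the 4 genes and the one with the widest interval. Without hypoxia replicate 3 the log2 change of CYTB was -0.39 (limma adjusted p = 0.37).

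COX1, the catalytic subunit gene of complex IV, had 7395, 8259 and 7426 FPKM under hypoxia, against 8375, 9198 and 12151 FPKM at normal oxygen. The groups were separated by 117 FPKM, which is 1.41% of the highest hypoxia value, and normal replicate 3 stood far above the rest. In recovered reads, not divided by the library total, COX1 overlapped, with 326334 to 380875 under hypoxia and 358993 to 483297 at normal oxygen. The recovered reads of CYTB, COX3 and ATP6 did not overlap. The means were 7693 ± 489.9 FPKM under hypoxia and 9908 ± 1985 FPKM at normal oxygen (SD, n = 3 each). The log2 change was -0.35 with an interval from -0.73 to 0.036, and the limma adjusted p was 0.32. Of the 4 genes it was nearest to no change, and its direction turned to 0.15 under quantile normalization. Without normal replicate 3 its log2 change was -0.19 (limma adjusted p = 0.41).

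COX3, the other complex IV gene, had 3148, 3430.3 and 3468 FPKM under hypoxia, against 4184, 4021 and 5491 FPKM at normal oxygen. The hypoxia libraries lay close together, within 1.10-fold of one another, while normal replicate 3 was again the highest. The means were 3349 ± 175 FPKM and 4566 ± 806 FPKM for hypoxia and normal (SD, n = 3 each). The log2 change was -0.43 with an interval from -0.78 to -0.085, and the limma adjusted p was 0.20. Under quantile normalization its log2 change was -0.22.

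ATP6, the ATP synthase gene, had 2656, 2867 and 2449.7 FPKM under hypoxia, against 3741, 3359 and 4218 FPKM at normal oxygen. Libraries within a group differed least at normal oxygen for this gene, with a coefficient of variation of 11.4%, against 13.4 to 20.0% for the other 3. The means were 2658 ± 208 FPKM under hypoxia and 3773 ± 431 FPKM at normal oxygen (SD, n = 3 each). The log2 change was -0.50 with an interval from -0.80 to -0.20. Its limma adjusted p of 0.11 was the smallest of the 4 genes, and under quantile normalization its log2 change was -0.31.

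**Figure D1:**
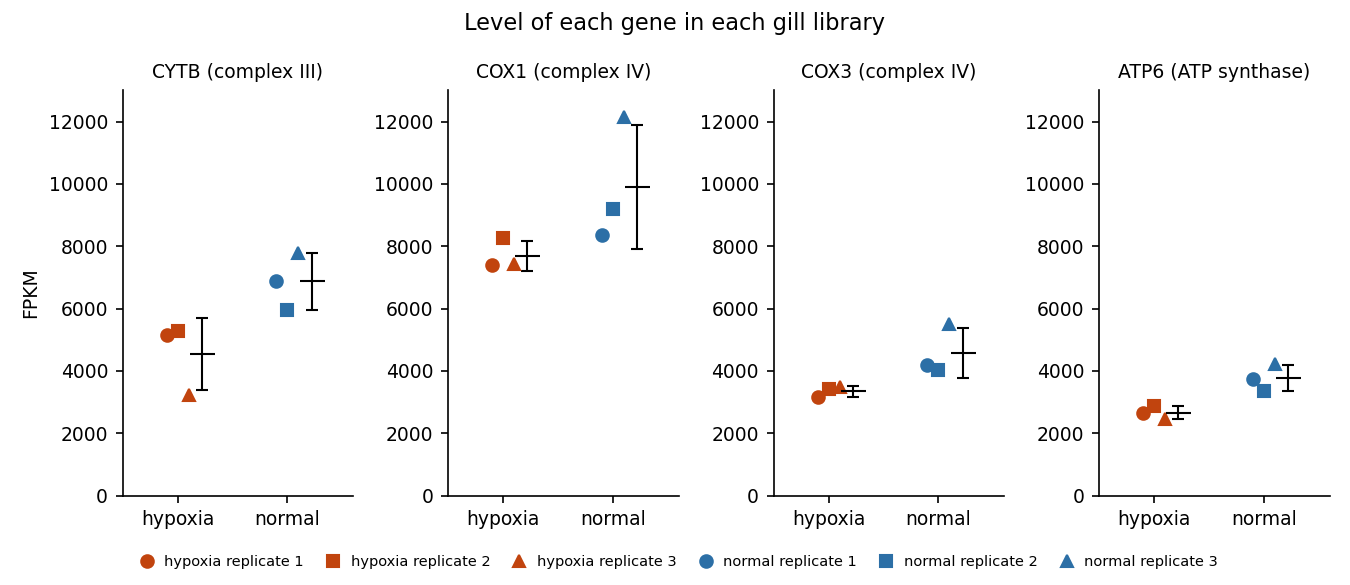
FPKM (vertical axis, from 0) of each gene in the 3 hypoxia libraries, left, and the 3 normal libraries, right, with the marker shape giving the replicate and the bar the mean ± SD (n = 3 each). Every hypoxia point lies below every normal point of its gene, by 117 FPKM in COX1, and CYTB of hypoxia replicate 3 stands apart at 3220.1 FPKM.

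The 4 genes were among the most abundant transcripts of the gill. COX1 ranked first of all 20815 genes in every hypoxia library, and first in all normal libraries but replicate 1, where it ranked second. CYTB ranked 4, 3 and 9 in the hypoxia libraries and 3, 2 and 2 in the normal libraries. COX3 ranked from 7 to 11 under hypoxia and from 5 to 7 at normal oxygen. ATP6 ranked from 15 to 18 under hypoxia and from 8 to 11 at normal oxygen. Ranks depend on the other genes near the top as well as on the gene itself, and they were not tested.

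Per unit of length, the order COX1, CYTB, COX3, ATP6 held in 5 of the 6 libraries. The exception was hypoxia replicate 3, where COX3 with 3468 FPKM stood above CYTB with 3220.1 FPKM. Across scallops, the ranges of CYTB and COX3 overlapped under hypoxia but not at normal oxygen, and those of COX3 and ATP6 overlapped at normal oxygen but not under hypoxia. Within each group COX1 lay above every value of the other 3 genes. Counted in reads, which favour the longer genes, COX1 (1653 bases) held 1.27 ± 0.081% of a hypoxia library and 1.64 ± 0.33% of a normal library (SD, n = 3 each). CYTB (1161 bases) held 0.528 ± 0.13% and 0.798 ± 0.11% for hypoxia and normal. COX3 (873 bases) held 0.292 ± 0.015% and 0.399 ± 0.070%, and ATP6 (735 bases) 0.195 ± 0.015% and 0.277 ± 0.032%, in the same order of groups.

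Together the 4 genes held 3.63 ± 0.26% of total FPKM in hypoxia libraries and 4.71 ± 0.52% in normal libraries (SD, n = 3 each). The hypoxia libraries stood at 3.65, 3.87 and 3.35%, and the normal libraries at 4.49, 4.34 and 5.30%. These sums did not overlap, which follows from the shares of total FPKM held by the single genes, and they carry no test. Of those shares COX1 had the narrowest gap, with 1.61% in hypoxia replicate 2 and 1.62% in normal replicate 1.

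Ratios of FPKM within a library are not altered when all its values are multiplied by 1 factor, and they were compared next to see whether the complexes moved apart. Quantile normalization is no such factor and does alter them. Of 12 ratios, 6 between pairs of the 4 genes, 2 of complex IV as a whole and 4 against the ND genes, the groups overlapped in all 12 on the deposited values. Exact two-sided permutation p-values ran from 0.2 to 1, where 0.1 is the smallest possible with 3 against 3, and Benjamini-Hochberg adjustment over the 12 gave 0.87 or more. Under quantile normalization 5 ratios, each with COX1 or complex IV in it, reached 0.1. Their log2 differences (hypoxia minus normal) were then -0.60 for CYTB to COX1, -0.42 for CYTB to complex IV, 0.46 for COX1 to ATP6, 0.28 for complex IV to ATP6 and 0.49 for COX1 to the ND genes. That method gives the top gene of each library the same value, and COX1 was top in all libraries but normal replicate 1. With 3 libraries a group no ratio could have passed a threshold of 0.05, so the range of differences between single libraries is given for each.

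Ratios with CYTB on top, complex III relative to the others, had the widest spread among hypoxia libraries. CYTB had 0.695, 0.638 and 0.434 times the FPKM of COX1 in hypoxia replicates 1, 2 and 3, against 0.822, 0.647 and 0.642 times in the normal libraries. The lowest ratio was that of hypoxia replicate 3 and the highest that of normal replicate 1, while the other 4 libraries lay together. The mean log2 ratio differed by -0.28 (hypoxia minus normal, exact permutation p = 0.4), and single pairs of libraries differed by -0.92 to 0.12. Without hypoxia replicate 3 the difference was -0.069, and without hypoxia replicate 1 it was -0.41 (exact permutation p = 0.1). Against COX3, CYTB stood at 1.63, 1.54 and 0.928 times under hypoxia and at 1.65, 1.48 and 1.42 times at normal oxygen. The mean log2 difference was -0.19 (exact permutation p = 0.8) and was 0.067 without hypoxia replicate 3. Against complex IV taken as the mean log2 value of COX1 and COX3, the difference for CYTB was -0.23 (exact permutation p = 0.6). It was -0.0011 without hypoxia replicate 3 and -0.38 without hypoxia replicate 1.

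Complex III relative to ATP synthase was the steadiest ratio in the normal libraries. CYTB stood at 1.94, 1.84 and 1.31 times ATP6 under hypoxia and at 1.84, 1.77 and 1.85 times at normal oxygen. In 5 libraries the ratio thus lay between 1.77 and 1.94, and hypoxia replicate 3 lay outside that range. The mean log2 difference was -0.12 (exact permutation p = 0.8), and it was 0.052 without hypoxia replicate 3.

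Complex IV relative to ATP synthase had the higher mean log2 ratio under hypoxia, at 0.93 ± 0.10 against 0.82 ± 0.15 at normal oxygen (SD, n = 3 each). The difference of 0.11 (exact permutation p = 0.4) was 0.030 without normal replicate 1, 0.053 without hypoxia replicate 3 and 0.18 without normal replicate 3. COX1 had 2.78, 2.88 and 3.03 times the FPKM of ATP6 under hypoxia, against 2.24, 2.74 and 2.88 times at normal oxygen. The groups overlapped by a narrow margin, and normal replicate 1 was the low library. The mean log2 difference was 0.15 (exact permutation p = 0.2), with single pairs from -0.049 to 0.44. It was 0.045 without normal replicate 1 and 0.23 without normal replicate 3 (exact permutation p = 0.4 and 0.1). For COX3 to ATP6 the difference was 0.068 (exact permutation p = 0.7), with ratios of 1.18, 1.20 and 1.42 under hypoxia and 1.12, 1.20 and 1.30 at normal oxygen. In both groups replicate 3 was the highest, but no label says that a number pairs scallops.

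Within complex IV, COX1 stood at 2.35, 2.41 and 2.14 times COX3 under hypoxia and at 2.00, 2.29 and 2.21 times at normal oxygen. The mean log2 difference was 0.086 (exact permutation p = 0.4), and single pairs of libraries differed by -0.095 to 0.27. The difference was 0.030 without normal replicate 1, 0.052 without hypoxia replicate 2, 0.14 without hypoxia replicate 3 and 0.37 under quantile normalization.

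**Figure D2:**
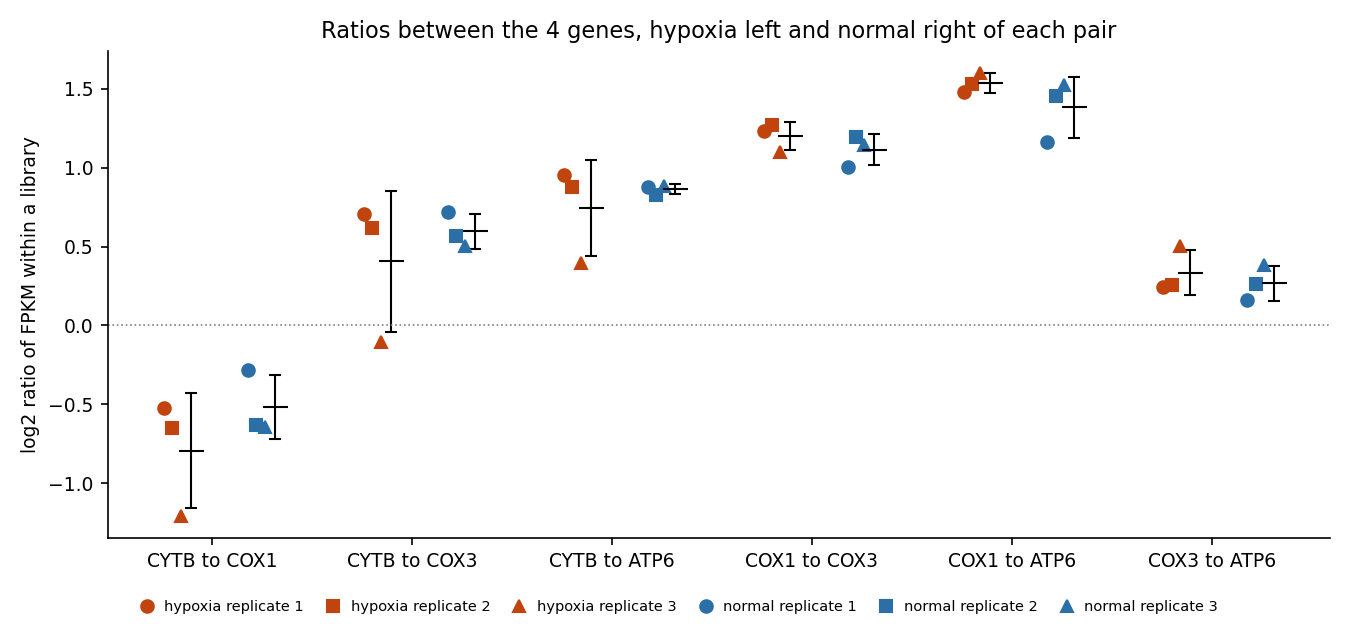
Log2 ratio of FPKM within a library (vertical axis, 0 meaning equal levels per length) for the 6 pairs of genes, hypoxia left and normal right, with the mean ± SD (n = 3 each). The groups overlap in all 6 pairs, and hypoxia replicate 3 is the lowest point in the 3 ratios that have CYTB on top.

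The 7 ND genes of complex I, encoded in the same genome, served as a comparison for the 4 genes. All 7 had lower means under hypoxia, 0 of 7 were called by limma (adjusted p from 0.14 to 0.47), and the median log2 change was -0.42. Groups were fully apart in 2 of the 7, with hypoxia lower, against 4 of the 4 and 10.3% of all tested genes. The SD left within groups, on the log2 scale, ran from 0.21 to 0.39 in the ND genes and from 0.14 in ATP6 to 0.31 in CYTB, with a median of 0.24 over all tested genes. Whether the ND genes differ from the 4 in this respect was not tested.

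Relative to the mean log2 level of the ND genes, no gene of the 4 set hypoxia apart from normal oxygen. COX3 stood at 1.96, 2.00 and 2.02 times that level under hypoxia and at 2.05, 2.10 and 1.75 times at normal oxygen, a log2 difference of 0.025 (exact permutation p = 1). For ATP6 the log2 difference was -0.043 and for COX1 0.11 (exact permutation p = 0.8 and 0.3). The COX1 difference was 0.045 without normal replicate 3, 0.074 without hypoxia replicate 2 and 0.20 without normal replicate 2. For CYTB it was -0.17 (exact permutation p = 0.6), and 0.082 without hypoxia replicate 3. The 4 genes held 60.5 ± 2.5% of the FPKM of the 11 mitochondrial genes under hypoxia and 60.1 ± 2.6% at normal oxygen (SD, n = 3 each).

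The share of each single gene in that mitochondrial total overlapped between the groups as well. COX1 held 25.5 ± 0.51% under hypoxia and 23.6 ± 1.46% at normal oxygen. CYTB held 15.0 ± 3.3% under hypoxia, where replicate 3 stood at 11.2%, and 16.5 ± 1.6% at normal oxygen. COX3 held 11.1 ± 0.81% and 10.9 ± 0.28%, and ATP6 8.81 ± 0.25% and 9.08 ± 0.91%, for hypoxia and normal (SD, n = 3 each).

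A pair of libraries departed from the others of their group, each in its own way. In hypoxia replicate 3, CYTB was at 0.619 times the mean of the other 2 hypoxia libraries, while COX1, COX3 and ATP6 were at 0.949, 1.05 and 0.887 times. The 7 ND genes were at 0.921 to 1.19 times in that library. The CYTB value rested on 102759 reads, for which the exact 95% Poisson interval is 3200.5 to 3239.9 FPKM and covers counting error only. On the log2 scale CYTB was 0.69 below the other 2 libraries there, and 4.18% of all tested genes were as low or lower by that measure.

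In normal replicate 3 all 11 mitochondrial genes were above the mean of the other 2 normal libraries, and the 4 genes less so than the ND genes. ATP6 was at 1.19 times, CYTB at 1.21, COX3 at 1.34 and COX1 at 1.38 times, against 1.42 to 1.88 times in the 7 ND genes. By the log2 difference from the other 2 normal libraries, 8.42% of all tested genes were as high as COX1 or higher. For ATP6 that share was 19.2%, and those of CYTB and COX3 lay in between. Normal replicate 3 also had the highest total FPKM of the 6 libraries, 559355. The 4 genes, less raised than the ND genes, held 57.1% of mitochondrial FPKM in that library, and 61.5 and 61.6% in normal replicates 1 and 2. In the hypoxia libraries the share was 61.9, 62.0 and 57.6%, low in replicate 3, where CYTB was low. With replicate 3 of both groups left out, an alternative chosen after the values were seen, the log2 changes were -0.30 in CYTB, -0.17 in COX1, -0.32 in COX3 and -0.36 in ATP6. The part of RNA quality or cell composition in these libraries was not tested.

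Place in the genome was set beside the levels. Among the 11 mitochondrial protein-coding genes of the reference table, CYTB, COX3 and ATP6 follow one another, with ND6 before CYTB and ND2 after ATP6, while COX1 lies apart, between ND1 and ND5. In hypoxia replicate 3 the low level of CYTB was not shared by its neighbours to the same extent. Relative to the normal mean on the log2 scale, CYTB stood at -1.09 there, ND6 at -0.65, COX3 at -0.38 and ATP6 at -0.62. In hypoxia replicates 1 and 2, CYTB, COX3 and ATP6 lay between -0.52 and -0.38, and ND6 stood at -0.59 and -0.51.

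**Figure D3:**
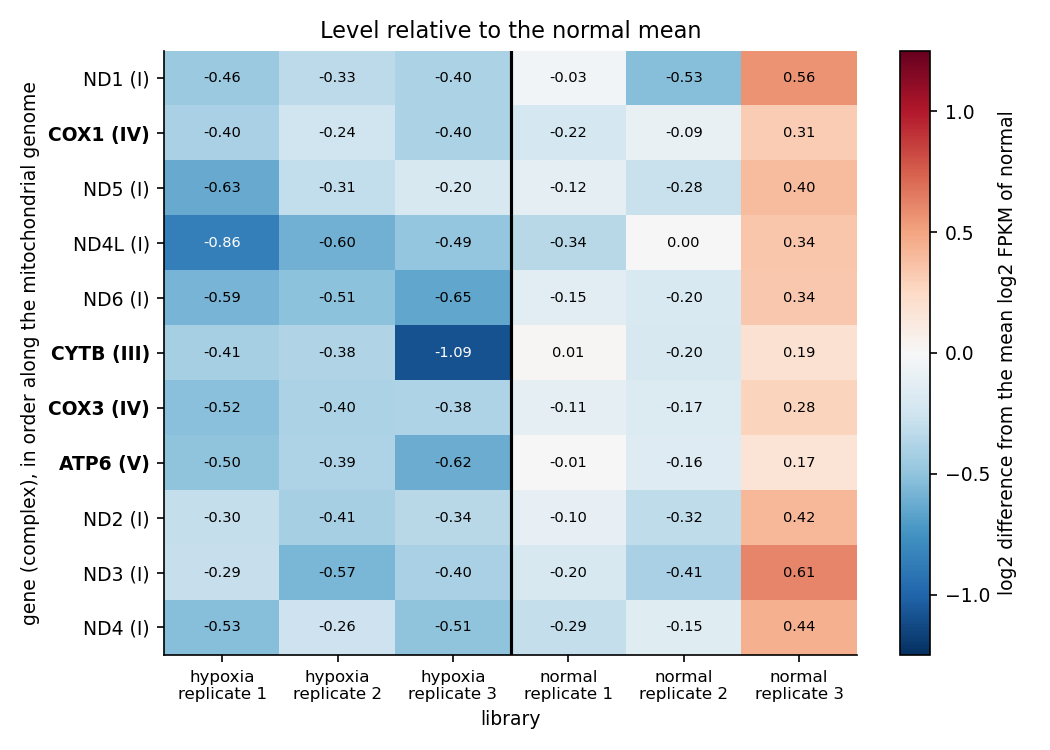
Log2 FPKM of the 11 mitochondrial genes (rows, in the order of the reference table, the 4 genes in bold) in each library (columns), as the difference from that gene's mean over the normal libraries; blue is lower and red higher. All hypoxia cells are below 0, the lowest being CYTB in hypoxia replicate 3 at -1.09, and all cells of normal replicate 3 are above 0.

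Likeness of pattern was measured by the correlation of log2(FPKM + 1) over the 6 libraries with the mean of the 4 genes. It is a description, since the libraries fall into 2 groups and share their scaling. Among the ND genes, ND6 was most like the 4 (Pearson r 0.98) and ND5 least (r 0.78). Of 13733 nuclear genes, 274 (2.00%) had an r of 0.9 or more, and 689 had an r of -0.9 or less. The highest were LOC110455736 (r 0.996), with 21.4 ± 2.1 FPKM under hypoxia and 33.8 ± 5.9 FPKM at normal oxygen, and LOC110455359 (r 0.995), with 20.9 ± 1.9 and 28.0 ± 4.3 FPKM for hypoxia and normal (SD, n = 3 each). They were selected for this likeness, so it carries no test, and neither was called by limma (adjusted p = 0.12 and 0.23).

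The direction of each change was compared over 19 other settings. CYTB, COX3 and ATP6 were lower under hypoxia in all 19, and COX1 in 18, with the exception of quantile normalization. In 0 of these settings did limma call any of the 4 genes at an adjusted p of 0.05, and the adjusted p of ATP6 ran from 0.068 to 0.37. Most of these settings could not turn a direction. The filters, variance models and replicate block leave the log2 change itself unaltered. Leaving out libraries, another pseudocount, library weights and voom cannot turn it while the groups are fully apart, as in each of the 4 genes. Only rescaling could do so, by equal FPKM sum, equal nuclear FPKM sum, median of ratios or quantile normalization, and the last turned COX1.

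**Figure D4:**
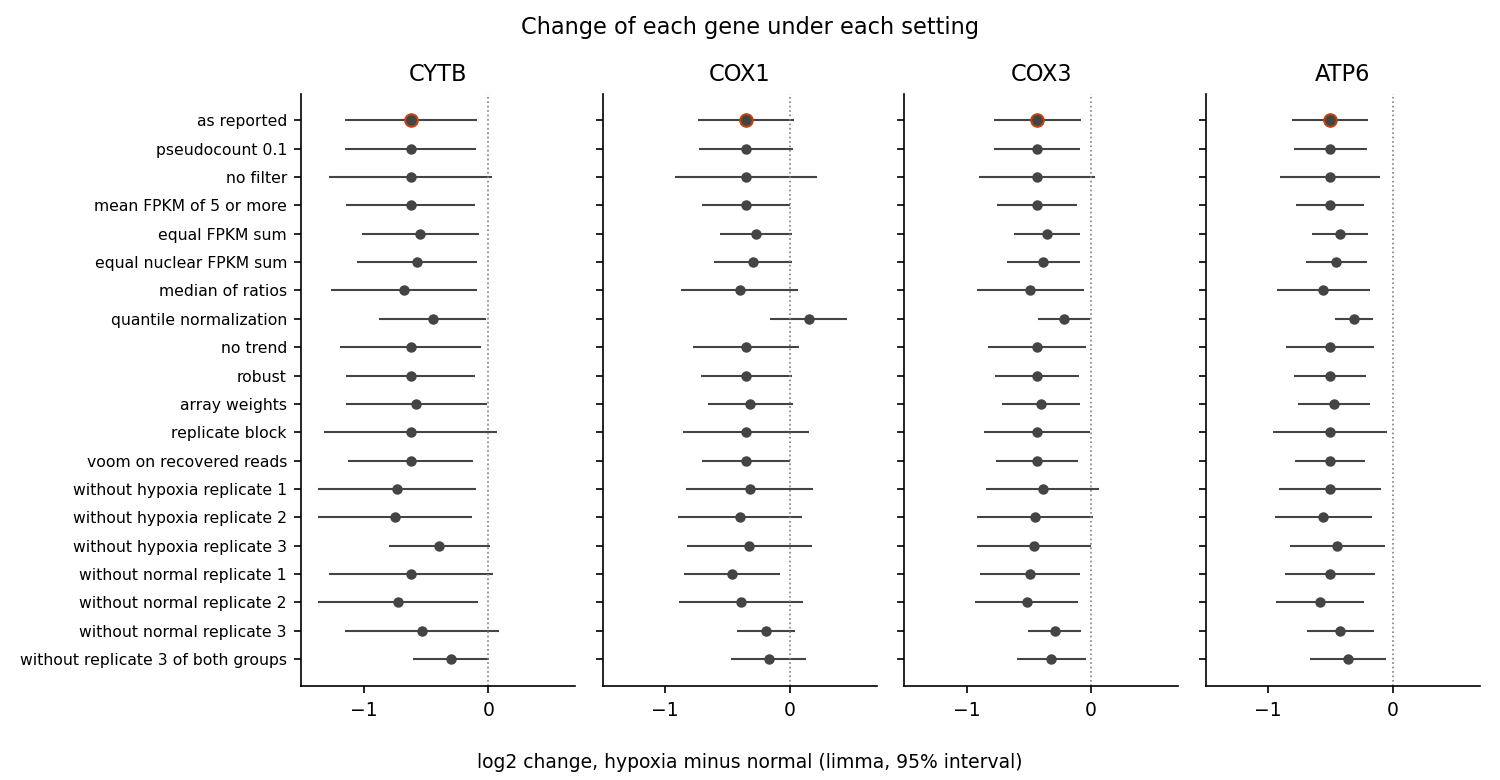
Log2 change (hypoxia minus normal, horizontal axis) of each gene as reported (top row) and under 19 other settings, with limma's 95% interval. All points lie below 0 except COX1 under quantile normalization at 0.15, and the interval of ATP6, which is not adjusted for the number of genes, lies below 0 in each setting.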

How the data were processed

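Per the labels' protocols, RNA of 6 gill samples was sequenced with VAHTS Universal V5 libraries. The authors deposited 1 table of FPKM values, 1 column per library, and all columns were matched to samples by title. Per the submitters' processing notes, fastp, HISAT2 and HTSeq were among the tools. Their versions, the genome build, and how strand and reads with several matches were treated are not stated in the labels.

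Gene symbols and lengths came from a RefSeq table of assembly ASM211388v2. It gives no product name for nuclear genes, so the planned lists of nuclear subunits, glycolysis and cell type markers were not run, and no sequence was at hand. Whole reads were recovered by seeking the library total at which the 11 mitochondrial genes give whole counts at those lengths. A total was accepted only where its values were whole within 0.005 reads, so that all 66 values were so was fixed by the search. The largest deviation from a whole read was 9.9e-05. With totals altered by 0.1%, 0 of the 66 were whole, at a tolerance that few values would meet in any case. Lengths for the other genes were then sought, which served voom only.

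Genes with 3 or more libraries at an FPKM of at least 1 were tested with limma 3.58.1 (R 4.3.3), as limma-trend on log2(FPKM + 1), two-sided, without covariates, with Benjamini-Hochberg adjustment over all tested genes and a threshold of 0.05. Ratios used FPKM without a pseudocount and exact permutation tests (Python 3.11.15, numpy 2.4.6, pandas 2.3.3, scipy 1.17.1, matplotlib 3.10.9). The limma and recovery steps were tested on simulated data. With residual SDs shuffled over 13744 genes, limma called 81% of 4-fold changes, 32% of 2-fold changes and 10 unchanged genes. Changes under 2-fold, the size found in the 4 genes, were not simulated, so a gene not called may still have changed. All 6 simulated totals and 300 simulated lengths were recovered. The planned comparison of within-group spread with genes of like level was replaced by one with all tested genes. The named genes are the 4 members, the ND genes by range, and the 2 nuclear genes most correlated with the mean of the 4. The 4 genes, the lists and the tests were chosen with earlier results of these data known. Settings varied were the pseudocount, filters, scaling, variance model, library weights, a replicate block, voom and left-out libraries.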

Additional observations from a re-analysis of the deposited data

How the results depend on the processing

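The counts over all genes were 203 higher and 59 lower by limma. They were 99 and 27 without a filter on low values and 46 and 5 under a replicate block, and leaving out 1 library gave 38 to 172 higher and 8 to 43 lower. Without replicate 3 of both groups, chosen after the values were seen, limma called 4 higher and 0 lower, with 893 and 658 at an unadjusted p under 0.05 and only 2 libraries a group. COX1 reversed to 0.15 under quantile normalization, which gives the top gene of every library the same value, and COX1 was top in all libraries but normal replicate 1.

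Ratios near 0 turned with single libraries. Leaving out 1 library gave log2 differences of -0.34 to 0.067 for CYTB to COX3, -0.23 to 0.052 for CYTB to ATP6, -0.015 to 0.12 for COX3 to ATP6, -0.30 to 0.082 for CYTB to the ND genes, -0.057 to 0.074 for COX3 to the ND genes and -0.18 to 0.042 for ATP6 to the ND genes. The first 4 and the last turned without hypoxia replicate 3, the last also without normal replicate 1 or 2, and COX3 to the ND genes turned without normal replicate 3. Without replicate 3 of both groups, CYTB to COX3 reversed to 0.022, CYTB to ATP6 to 0.063 and COX3 to the ND genes to -0.067, and ATP6 to the ND genes was 0.024 under quantile normalization. The share of mitochondrial FPKM held by the 4 genes differed by 0.40 percentage points, and by -1.07 to 1.83 with 1 library left out. The cause of these turns was not tested beyond the libraries left out.

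No label says that a replicate number pairs scallops. Deviations from the group means correlated by 0.10, 0.011 and -0.088 between libraries of the same number (replicates 1, 2 and 3). The highest correlation, 0.17, was between unlike numbers, hypoxia replicate 3 and normal replicate 2. By this measure 3 of 6 libraries correlated best with their own number, hypoxia replicate 2 by only 0.011 against 0.0089. The replicate block cannot move a log2 change in this balanced design, only its error. The interval of CYTB, with its log2 change of -0.62, then reached 0.070 (limma adjusted p = 0.34), and 0 of the 4 genes were called. The remaining settings left the adjusted calls of the 4 genes and the directions as they were. The number of the 4 at an unadjusted p under 0.05 was 1 to 3. It was lowest without a filter, where 1195 of 20815 tested genes were lower at that p. As reported, 966 of 13744 were.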
